A study of Mus musculus with 16 samples.

Results

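The 41 genes described here encode proteins that copy the genome and divide the cell, and they were chosen by name for those roles. They are 41 of 23179 genes listed for mouse mammary adipose tissue. Of them, 17 act before or during DNA synthesis (S-phase members) and 24 act in mitosis (mitotic members). RNA-Seq was performed on 16 libraries, 1 per mouse and 4 per group. Female wild-type C57BL/6N mice, 8 weeks old at arrival and acclimatized for 1 week, received a control low-fat diet throughout (CON-LFD) or a 60% high-fat diet for 15 weeks to induce obesity. Obese mice then remained on the high-fat diet (DIO-HFD), or lost weight in 1 of 2 ways, by a switch to a low-fat diet (DIO-LFD) or by vertical sleeve gastrectomy, an operation that removes much of the stomach, followed by low-fat feeding (DIO-VSG). Mice of the other 3 groups received sham surgery. All mice, controls included, were injected in the 4th mammary fat pad with E0771 cells, a mouse mammary cancer line, at 22 weeks after randomization and 7 weeks after surgery. The 9th, contralateral pad was taken 4 weeks later, so every library came from a tumor-bearing mouse. The sample records name this tissue as normal and, in other fields, give E0771 and mouse mammary cancer as its cell line and cell type. Whether the lymph node of the pad was removed was not described.

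Proliferating cells switch these genes on in order. E2F transcription factors drive genes that license replication origins and supply nucleotides, and later the DREAM and MuvB complexes, through the cell cycle homology region (CHR) of promoters, time the genes of mitosis. Most cells of adult adipose tissue do not divide, and in a whole fat pad these transcripts can come from any dividing cell, such as immune, stromal, endothelial or epithelial cells. Whether any pad held tumor cells was not tested. In such bulk tissue, fewer dividing cells and less RNA per dividing cell cannot be told apart.

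Each library held 46907377 to 57610899 reads. All 41 members passed the filter on low values and had between 67 and 10052 reads in each library, so counting error was small beside the differences between mice. Adipocyte markers were present in all 16 libraries, with a summed normalized count of 633417 to 2121297. Some libraries stood apart. CON-LFD 1 and DIO-HFD 3 had the highest mitotic levels, CON-LFD 2, CON-LFD 4, DIO-HFD 2 and DIO-HFD 3 had the lowest summed B cell markers, and DIO-HFD 2, DIO-HFD 3, DIO-LFD 1, DIO-LFD 2 and DIO-VSG 2 had high Fosl1, Hmga2 and Igf2bp2. Skeletal muscle markers were high in DIO-LFD 4, CON-LFD 4 and DIO-VSG 2 (sums of 124949, 28208 and 20496), erythroid markers in DIO-LFD 1 (461968) and keratinocyte markers in DIO-HFD 4 (11080). Their part in the results was not tested. Median differences are given with and without the first 3 sets. Without the set poor in B cell markers, CON-LFD 1 and 3 and DIO-HFD 1 and 4 remain of those groups. Without the set high in Fosl1, DIO-HFD 1 and 4, DIO-LFD 3 and 4 and DIO-VSG 1, 3 and 4 remain. Member counts for fits with libraries left out come without the share of all genes. A library outside a comparison acts on it only through the spread that all groups share.

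The promoters of both classes were read for the sites known to time them. RefSeq windows (GRCm38.p6, 250 bases before to 50 after the start of transcription) were matched by symbol for 35 of the 41 members, 20 mitotic and 15 S-phase. Those of Ccne2, Mcm4, Aurkb, Kif20a, Ccna2 and Tpx2 were not matched. Both strands were searched for a CHR, written TTTGAA or TTTAAA, for the CCAAT box bound by NF-Y, and for E2F sites, written TTTCCCGC, TTTCGCGC, TTTGCCGC or TTTGGCGC. E2F sites on opposite strands can share bases. A CHR was found in 18 of 20 mitotic promoters (90%) and 5 of 15 S-phase promoters (33.3%), against 27.8% of 27025 promoters of all genes. CCAAT was found in 17 mitotic (85%) and 9 S-phase promoters (60%), against 37.9%. CHR and CCAAT occurred in the same window in 16 mitotic promoters (80%), 3 S-phase promoters (20%) and 10.9% of all promoters. An E2F site was found in 1 mitotic promoter (5%) and 6 S-phase promoters (40%), against 2.32%. These are matches of letters and not shown sites. The 8 sequences below run from 170 bases before to 30 after the start, with every match to the 3 motifs in capitals. They belong to members whose counts follow and were picked for a CHR (mitotic) or an E2F site (S phase). Nusap1 and E2f1, whose counts also follow, had no match to the 3 motifs.
Ccnb1 (chr13:100786457-100786656, minus strand): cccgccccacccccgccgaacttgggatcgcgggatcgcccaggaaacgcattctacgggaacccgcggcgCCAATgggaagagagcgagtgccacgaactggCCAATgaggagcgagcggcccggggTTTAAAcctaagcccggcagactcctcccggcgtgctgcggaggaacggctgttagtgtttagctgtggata
Ccnb2 (chr9:70421525-70421724, minus strand): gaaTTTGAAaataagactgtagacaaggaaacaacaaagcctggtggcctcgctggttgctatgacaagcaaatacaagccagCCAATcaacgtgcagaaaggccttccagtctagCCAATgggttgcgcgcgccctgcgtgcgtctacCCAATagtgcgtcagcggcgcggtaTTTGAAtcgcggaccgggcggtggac
Cdk1 (chr10:69352883-69353082, minus strand): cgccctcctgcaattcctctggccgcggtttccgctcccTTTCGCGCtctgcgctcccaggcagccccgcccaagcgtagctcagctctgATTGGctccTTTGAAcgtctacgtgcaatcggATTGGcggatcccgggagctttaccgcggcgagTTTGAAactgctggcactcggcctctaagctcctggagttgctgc
Prc1 (chr7:80294281-80294480, plus strand): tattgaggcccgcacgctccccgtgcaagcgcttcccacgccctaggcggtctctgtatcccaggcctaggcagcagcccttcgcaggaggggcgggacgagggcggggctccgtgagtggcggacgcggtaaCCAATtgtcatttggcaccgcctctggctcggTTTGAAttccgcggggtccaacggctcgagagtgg
Mki67 (chr7:135716350-135716549, minus strand): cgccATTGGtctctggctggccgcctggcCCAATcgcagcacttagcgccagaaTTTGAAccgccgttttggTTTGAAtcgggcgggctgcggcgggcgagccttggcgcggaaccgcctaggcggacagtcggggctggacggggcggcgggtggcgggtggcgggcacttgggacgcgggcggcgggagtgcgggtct
Top2a (chr11:99024160-99024359, minus strand): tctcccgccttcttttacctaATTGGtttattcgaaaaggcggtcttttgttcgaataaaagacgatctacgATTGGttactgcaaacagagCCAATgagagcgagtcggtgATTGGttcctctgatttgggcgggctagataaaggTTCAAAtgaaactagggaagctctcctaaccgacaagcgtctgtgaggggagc
Cdc6 (chr11:98907981-98908180, plus strand): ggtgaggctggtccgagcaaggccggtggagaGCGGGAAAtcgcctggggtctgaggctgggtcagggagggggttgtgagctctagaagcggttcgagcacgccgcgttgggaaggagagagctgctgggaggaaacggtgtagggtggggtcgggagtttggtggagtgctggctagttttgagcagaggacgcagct
Mcm6 (chr1:128359676-128359875, minus strand): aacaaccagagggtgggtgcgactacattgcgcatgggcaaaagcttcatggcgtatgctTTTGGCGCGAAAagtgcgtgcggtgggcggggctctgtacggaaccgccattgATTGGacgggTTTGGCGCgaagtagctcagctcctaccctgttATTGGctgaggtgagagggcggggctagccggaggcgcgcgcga
In Ccnb1 a single CHR began 42 bases before the start, with CCAAT boxes 99 and 67 bases before it. Ccnb2 had 3 CCAAT boxes, and Top2a had 4 with a CHR 23 bases before the start. Cdk1 held all 3 motifs and was the 1 mitotic promoter with an E2F site. Cdc6 and Mcm6 had E2F sites and no CHR in this window.

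Per kilobase of the longest protein-coding transcript, S-phase members were the more abundant class, with a median level of 342 normalized counts per kilobase over genes, against 126 for mitotic members. Pcna, the sliding clamp of DNA polymerases, was highest at a median of 1720 per kilobase over libraries. The helicase subunit gene Mcm7 followed at 649, then Cenpa, which encodes the histone variant that marks centromeres, at 605. The lowest was Bub1, a kinase of the spindle checkpoint, at 49.2. Mitotic members varied more between mice of a group. Their median within-group SD on the log2 scale was 0.78 (range 0.49 for Nusap1 to 1.12 for Bub1), against 0.44 for S-phase members (range 0.23 for Pcna to 0.72 for Uhrf1) and 0.25 for the 6586 tested genes at the same level. The highest library exceeded the lowest by 16.7-fold for Cenpf, a kinetochore protein, 15.3-fold for Bub1 and 1.8-fold for Pcna, with a median of 7.21-fold over mitotic and 2.86-fold over S-phase members. Reads of Pcna can be shared with the listed pseudogene Pcna-ps2 (286 to 679 normalized counts) and those of Cdt1 with the overlapping gene model Gm20388, so both levels are uncertain. Mcm7, Cdc20, Ccne2, Ccna2, Kif20a, Prc1, Tk1, Nusap1 and Ube2c overlap listed genes on the opposite strand.

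The extremes fell on the same few mice. CON-LFD 1 was the highest of the 16 libraries for 21 members, DIO-HFD 3 for 16 and DIO-HFD 1 for 4, whereas these libraries were highest for 5.94%, 15.2% and 16.4% of all tested genes. DIO-LFD 3 was lowest for 24 members, 20 of them mitotic, and for 2.88% of all genes. Summed over the 24 mitotic members, normalized counts were 43570, 10898, 19141 and 13352 in CON-LFD 1 to 4 and 28688, 11911, 36943 and 15152 in DIO-HFD 1 to 4. They were 8104, 19857, 6725 and 8402 in DIO-LFD 1 to 4 and 14437, 22435, 12494 and 9446 in DIO-VSG 1 to 4. Within every group 1 or 2 mice were well above the rest, and the ranges of the 4 groups overlapped. The corresponding sums over S-phase members spanned a narrower 13942 to 32247.

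**Figure D1:**
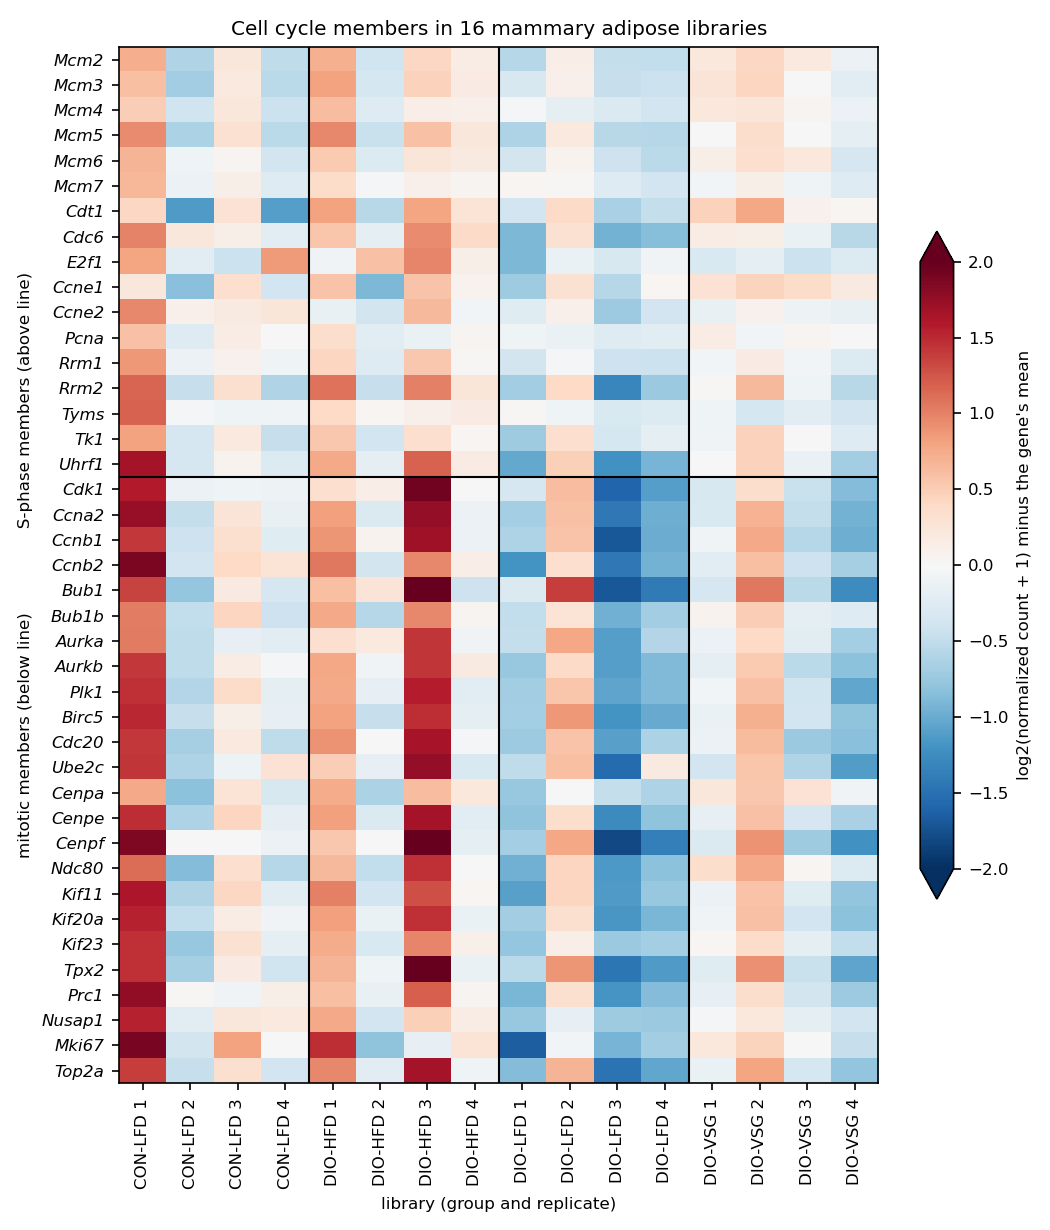
Heat map of the 41 members (rows, S-phase above the line and mitotic below) in the 16 libraries (columns, grouped). Color gives log2(normalized count + 1) minus the gene's mean over libraries. CON-LFD 1 and DIO-HFD 3 are high and DIO-LFD 3 low across most rows, with the strongest contrast in the mitotic rows.

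Markers of immune cells were read beside the members. The summed count of 8 B cell markers was 976 in DIO-HFD 3 and 258 in CON-LFD 2, against 17784 in CON-LFD 1 and 59262 to 68812 in DIO-VSG. Thus the B cell markers were almost absent from DIO-HFD 3, the library with the highest level of 14 mitotic members. All 8 were detected in that library, from 17.5 normalized counts for Blk to 501 for Pax5. T cell markers summed to 1146 in DIO-HFD 3 and 35657 in DIO-HFD 1. Macrophage markers summed to 39079 in DIO-HFD 3 and were highest in CON-LFD 4 at 111715. Their part in the differences below was not tested beyond the left-out libraries.

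The balance between Mki67, which encodes the proliferation antigen Ki-67, and Top2a, the mitotic DNA topoisomerase, also differed between libraries. This ratio was chosen after the values were seen. The log2 ratio of their normalized counts was 0.88 to 1.08 in 10 libraries. It was 0.64 in CON-LFD 2, −0.05 in DIO-HFD 2, −1.29 in DIO-HFD 3, −0.24 in DIO-LFD 1, −0.19 in DIO-LFD 2 and 0.20 in DIO-VSG 2. The last 5 of these were also the libraries with high Fosl1, which encodes an AP-1 transcription factor. Fosl1 was at 549, 2627, 620, 1293 and 595 normalized counts there, in the same order, and at 70.8 to 165 in the other 11 libraries. Hmga2, a chromatin protein of embryonic tissues, was at 771, 4217, 611, 1599 and 675 in these 5 and at 9.24 to 113 elsewhere. Igf2bp2, an RNA-binding protein, was at 789 to 2206 in these 5 and at 193 to 460 elsewhere. These genes were also picked after their values were seen, and their part in the members' differences was not tested beyond leaving these 5 libraries out.

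**Figure D2:**
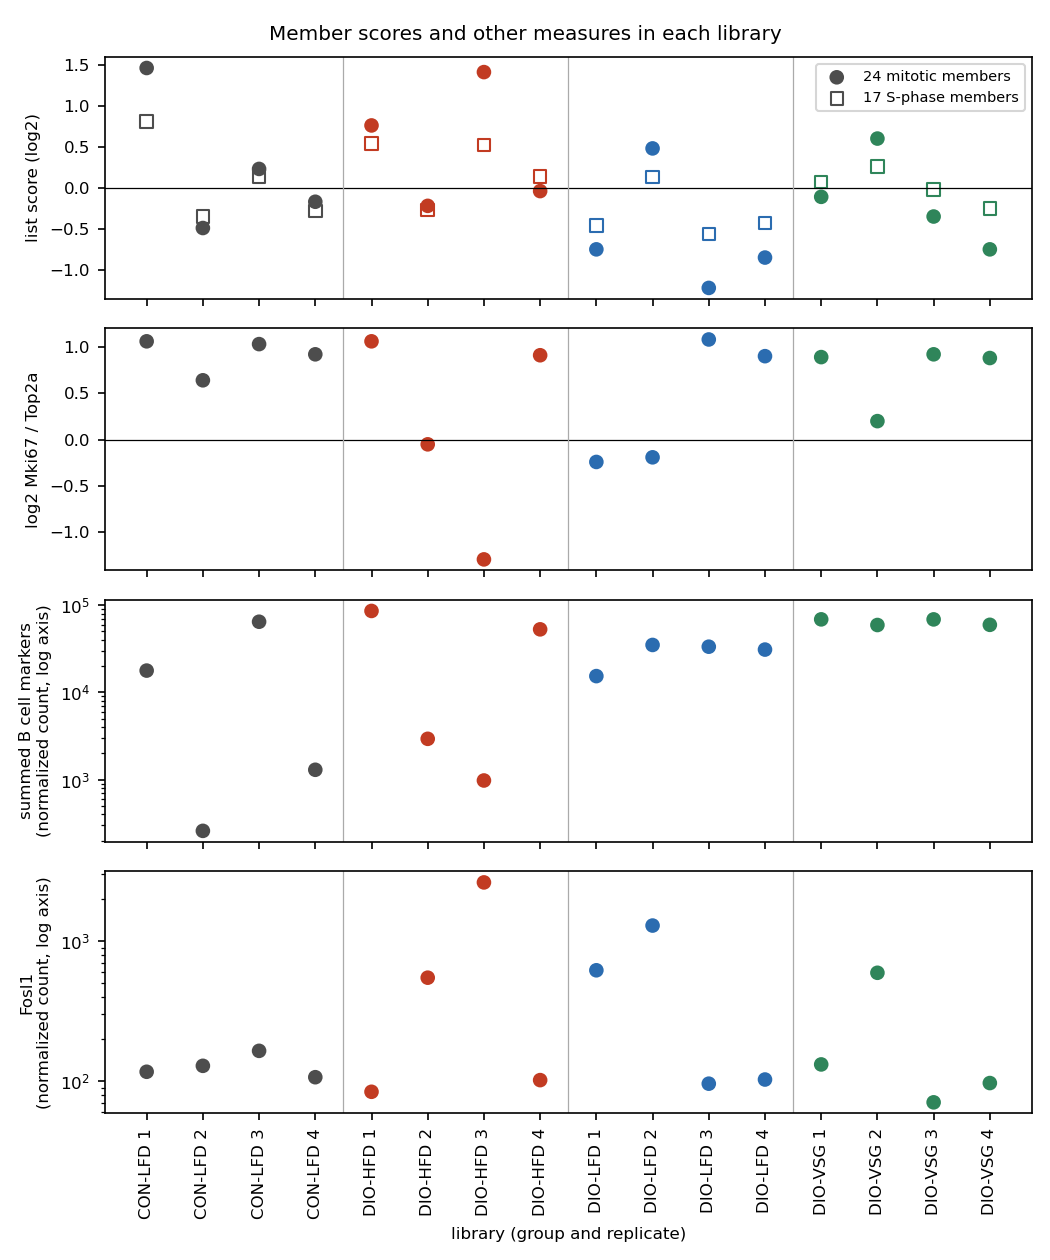
Each point is 1 library, colored by group. From top to bottom, the mean over members of log2(normalized count + 1) minus the gene's mean (filled circles, 24 mitotic members, and open squares, 17 S-phase members), the log2 ratio of Mki67 to Top2a, the summed normalized count of 8 B cell markers and the normalized count of Fosl1, the last both on log axes. DIO-HFD 3 combines a high mitotic score (1.41) with the lowest Mki67 to Top2a ratio (−1.29), few B cell transcripts (976) and the highest Fosl1 (2627).

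DIO-LFD was set against DIO-HFD to ask what dietary weight loss did after obesity. No member passed the test, and all 41 had a log2 difference below 0, against 48.4% of the 21218 genes tested. The median difference was −1.11 over mitotic members and −0.50 over S-phase members, beside 0.01 over all genes. By limma, 0 members and 0 genes (0%) passed an adjusted P value of 0.05. At a nominal, meaning unadjusted, P value below 0.05, 16 members were lower (11 mitotic and 5 S-phase), against 3.16% of all genes, and 0 were higher, against 5.37%. The smallest P value was 0.00753 (limma adjusted P = 0.456), for Cdc6.

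Among S-phase members, Cdc6, which loads the replicative helicase at origins, was at 316, 189, 415 and 281 normalized counts in DIO-HFD 1 to 4 and at 115, 267, 111 and 119 in DIO-LFD 1 to 4. DIO-LFD 2 lay within the DIO-HFD range and the other 3 DIO-LFD mice lay below it. The log2 difference was −1.03 (95% interval −1.73 to −0.32). E2f1, the transcription factor that opens S phase, was at 528, 832, 1094 and 601 in DIO-HFD and at 297, 503, 440 and 525 in DIO-LFD. Its groups did not overlap, narrowly, and the log2 difference was −0.77 (−1.41 to −0.12, limma adjusted P = 0.511).

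Uhrf1, which carries DNA methylation through replication, was at 1393, 724, 1863 and 924 in DIO-HFD and at 405, 1147, 354 and 430 in DIO-LFD (log2 difference −1.15, −2.16 to −0.14). Rrm1 and Rrm2 encode the subunits of ribonucleotide reductase, which makes deoxyribonucleotides. Rrm1 was at 2625, 1637, 2839 and 1988 in DIO-HFD and at 1517, 1911, 1464 and 1446 in DIO-LFD (log2 difference −0.50, −0.96 to −0.03). Rrm2 was at 1140, 392, 1085 and 634 against 331, 713, 218 and 323 (log2 difference −1.05, −2.03 to −0.07). For these 3 genes DIO-LFD 2 alone of the DIO-LFD mice reached into the DIO-HFD range. Tyms, the thymidylate synthase, was at 504, 394, 413 and 429 in DIO-HFD and at 390, 362, 309 and 317 in DIO-LFD, and it and E2f1 were the 2 members of 41 whose groups did not overlap with DIO-LFD lower, against 1.5% of all genes.

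The helicase subunits and the clamp had intervals that reached 0. Mcm2 was at 1880, 874, 1537 and 1273 in DIO-HFD and at 778, 1264, 829 and 822 in DIO-LFD (log2 difference −0.56, −1.19 to 0.06). Pcna was at 3386, 2264, 2402 and 2735 against 2488, 2421, 2213 and 2275 (log2 difference −0.18, −0.52 to 0.15). DIO-LFD 2 again lay inside the DIO-HFD range for Mcm2, as did 3 DIO-LFD mice for Pcna. The other helicase subunits Mcm3 to Mcm7 had differences of −0.71 (Mcm5) to −0.27 (Mcm7), and Cdt1, which works with Cdc6 at origins, was at −0.61. The E cyclins, which carry cells into S phase, were at −0.30 (Ccne1) and −0.33 (Ccne2), and thymidine kinase Tk1 at −0.36.

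The mitotic members had larger differences and wider intervals. Ccnb1 and Ccnb2 encode the B cyclins that activate Cdk1 at entry into mitosis. Ccnb1 was at 597, 340, 1053 and 298 normalized counts in DIO-HFD and at 210, 480, 100 and 162 in DIO-LFD (log2 difference −1.32, −2.49 to −0.14). Ccnb2 was at 551, 206, 518 and 291 against 115, 333, 97.2 and 137 (log2 difference −1.26, −2.33 to −0.19). Cdk1 itself was at 526, 453, 1590 and 411 against 329, 635, 138 and 192 (log2 difference −1.20, −2.36 to −0.04). In all 3 genes DIO-LFD 2 was the DIO-LFD mouse inside the DIO-HFD range and DIO-LFD 3 was the lowest of all 16.

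Aurkb, the kinase of the chromosomal passenger complex, was at 556, 309, 880 and 369 in DIO-HFD and at 192, 423, 151 and 175 in DIO-LFD (log2 difference −1.17, −2.15 to −0.20). Nusap1, a microtubule-bundling protein of the spindle, was at 791, 361, 657 and 523 against 277, 420, 286 and 279 (log2 difference −0.85, −1.55 to −0.15, limma adjusted P = 0.502). Prc1, which crosslinks midzone microtubules for cytokinesis, was at 942, 562, 1426 and 642 against 329, 775, 272 and 339 (log2 difference −1.09, −2.03 to −0.15). Each of these again had DIO-LFD 2 as its overlapping mouse.

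Top2a, which untangles sister chromatids, was at 4003, 1765, 6526 and 1929 in DIO-HFD and at 1126, 3297, 738 and 992 in DIO-LFD (log2 difference −1.26, −2.44 to −0.07). Mki67 was at 8354, 1711, 2675 and 3623 against 953, 2894, 1564 and 1849 (log2 difference −1.03, −2.14 to 0.08). Mki67 overlapped in 2 DIO-LFD mice, since DIO-HFD 2 was low. The remaining members at a nominal P value below 0.05 were the kinesins Kif11 (−1.12), Kif20a (−1.12) and Kif23 (−0.90) and the kinetochore motor Cenpe (−1.13). The members with intervals that reached 0 were Ccna2 (−1.17), the checkpoint and spindle kinases Bub1 (−1.17), Bub1b (−0.77), Aurka (−0.82) and Plk1 (−1.01), survivin, encoded by Birc5 (−0.91), the anaphase-promoting complex activator Cdc20 (−1.09), its ubiquitin-conjugating enzyme Ube2c (−0.76), Cenpa (−0.69), Cenpf (−1.42), Ndc80 (−1.03) and the spindle assembly factor Tpx2 (−1.19).

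The number of members at a nominal P value below 0.05 changed when 1 mouse was left out. It was 1 without DIO-HFD 3, 3 without DIO-HFD 1 or DIO-LFD 3, and 4 without DIO-LFD 1 or DIO-LFD 4. It was 28 without CON-LFD 1, 29 without DIO-HFD 2 and 32 without DIO-LFD 2. CON-LFD 1 is in neither group and acts only through the spread that all groups share. The share of all genes at that level is not given for these fits. The medians stayed below 0 without any 1 mouse, between −1.43 and −0.75 for mitotic and between −0.64 and −0.38 for S-phase members. Without CON-LFD 1 and DIO-HFD 3 they were −0.75 and −0.46 with 9 members at a nominal P value below 0.05, without the 4 libraries poor in B cell markers −0.94 and −0.58 with 16, and without the 5 libraries high in Fosl1 −1.39 and −0.69 with 24. When limma weighted libraries by their variability, 1 member, Cdc6, passed the adjusted threshold (log2 difference −1.03), against 8.54% of all genes.

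Markers of mammary epithelium were read in the same comparison, and 0 passed the adjusted threshold by limma. Of 7 measured, 4 were higher in DIO-LFD at a nominal P value below 0.05 (5.37% of all genes), the luminal keratin genes Krt18 (log2 difference 1.25, 0.63 to 1.87, limma adjusted P = 0.305) and Krt8 (1.11) and the epithelial adhesion genes Epcam (0.68) and Cdh1 (0.62). The basal keratin genes Krt14 and Krt5 were at −0.38 and −0.31, and Elf5, of luminal progenitors, was at 0.66. The summed count of the 7 was 22829 to 46985 in DIO-HFD and 34134 to 88003 in DIO-LFD, with DIO-LFD 2 the highest. Stromal progenitor markers summed to 129820 to 214940 in DIO-HFD and 51331 to 266411 in DIO-LFD. Endothelial markers summed to 47223 to 76534 and 42535 to 86943. B cell markers were all above 0, from 0.94 (Pax5) to 1.74 (Cr2), as were T cell markers but for Cd247 (−0.39). Adipocyte markers were all above 0, from 0.03 (Lpl) to 0.76 (Retn), and macrophage markers were below 0 but for Itgam (0.12). The part of these cells in the members' differences was not tested.

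**Figure D3:**
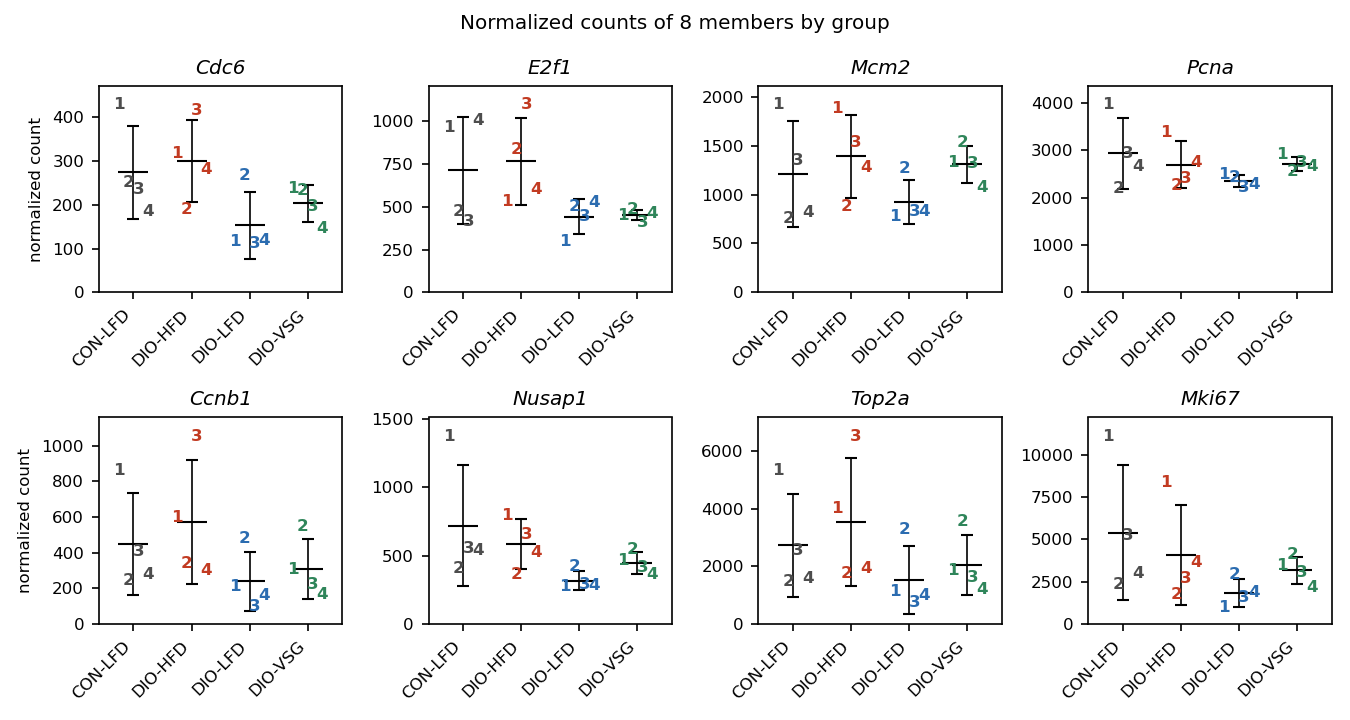
Normalized counts of 8 members in each library, plotted as the replicate number in the color of its group, with the group mean (horizontal bar) and SD (vertical bar, n = 4). Replicate 2 is the highest DIO-LFD mouse for Cdc6, Mcm2, Ccnb1, Nusap1, Top2a and Mki67, and replicate 1 is the highest CON-LFD mouse for all but E2f1.

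DIO-VSG was set against DIO-HFD to ask what surgical weight loss did, with the same DIO-HFD libraries as above. Most members had a log2 difference below 0, with overlapping mice, no member passed the test, and E2f1 had the smallest P value. Of 41 members, 37 had a log2 difference below 0, against 47.5% of all genes, with medians of −0.66 over mitotic, −0.15 over S-phase members and 0.02 over all genes. By limma, 0 members and 0 genes (0%) passed the adjusted threshold, 1 member was lower at a nominal P value below 0.05, against 8.12% of all genes, and 0 were higher, against 5.05%.

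That member, E2f1, was at 446, 481, 410 and 459 normalized counts in DIO-VSG 1 to 4, a tight cluster below all 4 DIO-HFD mice (log2 difference −0.71, −1.35 to −0.06, limma adjusted P = 0.351). Tyms was at 361, 302, 328 and 293, also below every DIO-HFD mouse (log2 difference −0.44, −0.93 to 0.06). These were the 2 members whose groups did not overlap with DIO-VSG lower, against 4.22% of all genes. Aurkb was at 285, 469, 224 and 183 (log2 difference −0.83, −1.81 to 0.14), with DIO-VSG 2 inside the DIO-HFD range. Ccne1 (0.24), Pcna (0.03), Cdt1 (0.01) and Cenpa (0.01) had differences above 0. The count at a nominal P value below 0.05 was 0 without DIO-HFD 3, DIO-VSG 1, DIO-VSG 3 or DIO-VSG 4. It was 2 without CON-LFD 1 or DIO-HFD 2, and 3 without DIO-VSG 2. With library weights 3 members were lower at that level, where 7184 of the 21218 genes tested reached it in either direction. The mitotic median was −0.36 without CON-LFD 1 and DIO-HFD 3, −0.50 without the 4 libraries poor in B cell markers and −0.78 without the 5 high in Fosl1.

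In DIO-VSG 1 to 4, Mki67 was at 3448, 4076, 3015 and 2176 normalized counts. Top2a was at 1861, 3546, 1599 and 1181. Cdk1 was at 333, 532, 306 and 227. Each was highest in DIO-VSG 2. The B cyclin gene Ccnb1 was at 308, 548, 219 and 165. Ccnb2 was at 226, 401, 199 and 166. DIO-VSG 2 was again the highest and DIO-VSG 4 the lowest. Nusap1 was at 460, 545, 414 and 362. Prc1 was at 555, 793, 482 and 376. These spindle genes kept that order of extremes. Among S-phase members, Cdc6 was at 238, 233, 195 and 146. Uhrf1 was at 822, 1132, 754 and 507. Cdc6 was nearly level in DIO-VSG 1 and 2, while Uhrf1 was highest in DIO-VSG 2. The reductase genes were at 1894, 2199, 1875 and 1626 (Rrm1) and at 549, 845, 510 and 366 (Rrm2). Cdt1 was at 910, 1128, 700 and 676. Mcm3 was at 1713, 1923, 1418 and 1223. All 4 were highest in DIO-VSG 2 and lowest in DIO-VSG 4.

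Of 6 endothelial markers, Cdh5 (−0.78), Tek (−0.69) and Kdr (−0.46) were lower in DIO-VSG than in DIO-HFD at a nominal P value below 0.05, against 8.12% of all genes, and the list summed to 40881 to 44393 against 47223 to 76534, with no overlap. Of 8 stromal progenitor markers, Pdgfra (−0.89) and Cd34 (−0.85) were lower at that level, while Dpp4 (0.28) and Ly6a (0.13) were above 0. Of 8 macrophage markers, 7 were below 0 and Trem2 was lower at that level (−1.67), with Lyz2 at 0.14. Of 7 epithelial markers, Krt18 was higher (0.89), against 5.05% of all genes, and the basal Krt14 (−0.76) and Krt5 (−0.62) were below 0. All 16 B and T cell markers had differences above 0, from 0.89 to 2.86, with overlapping groups. By limma 0 of these markers passed the adjusted threshold, and their part in the members' differences was not tested.

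DIO-HFD was set against CON-LFD to ask what obesity did, with DIO-HFD again shared. No member stood out from the spread between mice. Of 41 members, 8 were below 0, against 47.3% of all genes, and the medians were 0.22 over mitotic, 0.16 over S-phase members and 0.02 over all genes. By limma, 0 members passed an adjusted P value of 0.05, against 0.0377% of all genes. Nominal P values below 0.05 were reached by 0 members in the lower direction, against 7.66%, and 0 in the higher, against 5.23%. For all 41 the groups overlapped, whereas 3% of all genes were lower and 1.76% higher without overlap.

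Cdt1 had the smallest P value (log2 difference 0.71, −0.14 to 1.56), at 878, 302, 812 and 307 normalized counts in CON-LFD 1 to 4 and 1155, 450, 1145 and 799 in DIO-HFD. CON-LFD 1 and 3 were high and CON-LFD 2 and 4 low. Mcm3 was at 2174, 880, 1633 and 980 in CON-LFD and 2478, 1118, 1973 and 1591 in DIO-HFD (0.38, −0.25 to 1.00), with CON-LFD 1 and 3 again high. In DIO-LFD, Cdt1 was at 504, 862, 420 and 475 and Mcm3 at 1139, 1533, 1031 and 1063. Ccne2 was at 562, 307, 327 and 339 against 258, 222, 449 and 277 (−0.36, −0.87 to 0.16). Mki67 was at 11093, 2325, 5214 and 2976 in CON-LFD, a mean of 5402 ± 3991 (SD, n = 4) against 4091 ± 2947 in DIO-HFD, so its log2 difference of −0.38 (−1.49 to 0.73) lay well inside the spread. The mitotic median was −0.09 to 0.64 when 1 mouse was left out and 0.30 without CON-LFD 1 and DIO-HFD 3. It was 0.08 without the 5 libraries high in Fosl1, which left DIO-HFD 1 and 4. It was −0.50 without the 4 libraries poor in B cell markers. Only CON-LFD 1 and 3 and DIO-HFD 1 and 4 then remained, and CON-LFD 1 had the highest mitotic sum of the 16 libraries (43570). With library weights the direction turned, to medians of −0.88 (mitotic) and −0.29 (S phase), and 2 members passed the adjusted threshold, Ccne2 among them (−0.72), against 19.8% of all genes. Of 7 epithelial markers, Epcam, Krt18 and Cdh1 were lower in DIO-HFD at a nominal P value below 0.05, against 7.66% of all genes. All 7 were below 0 (−0.87 to −0.27), and all 8 B cell markers were above 0 (0.64 to 1.96) with none at that level. Endothelial markers were all above 0, from 0.28 (Tek) to 0.72 (Cldn5), as were macrophage markers but for Adgre1 (−0.10). Of these, Pecam1 (0.50) and Trem2 (1.45) were higher at that level, against 5.23% of all genes. Their part was not tested. Scaling by library totals moved the median of all genes by 0.16 in this comparison.

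**Figure D4:**
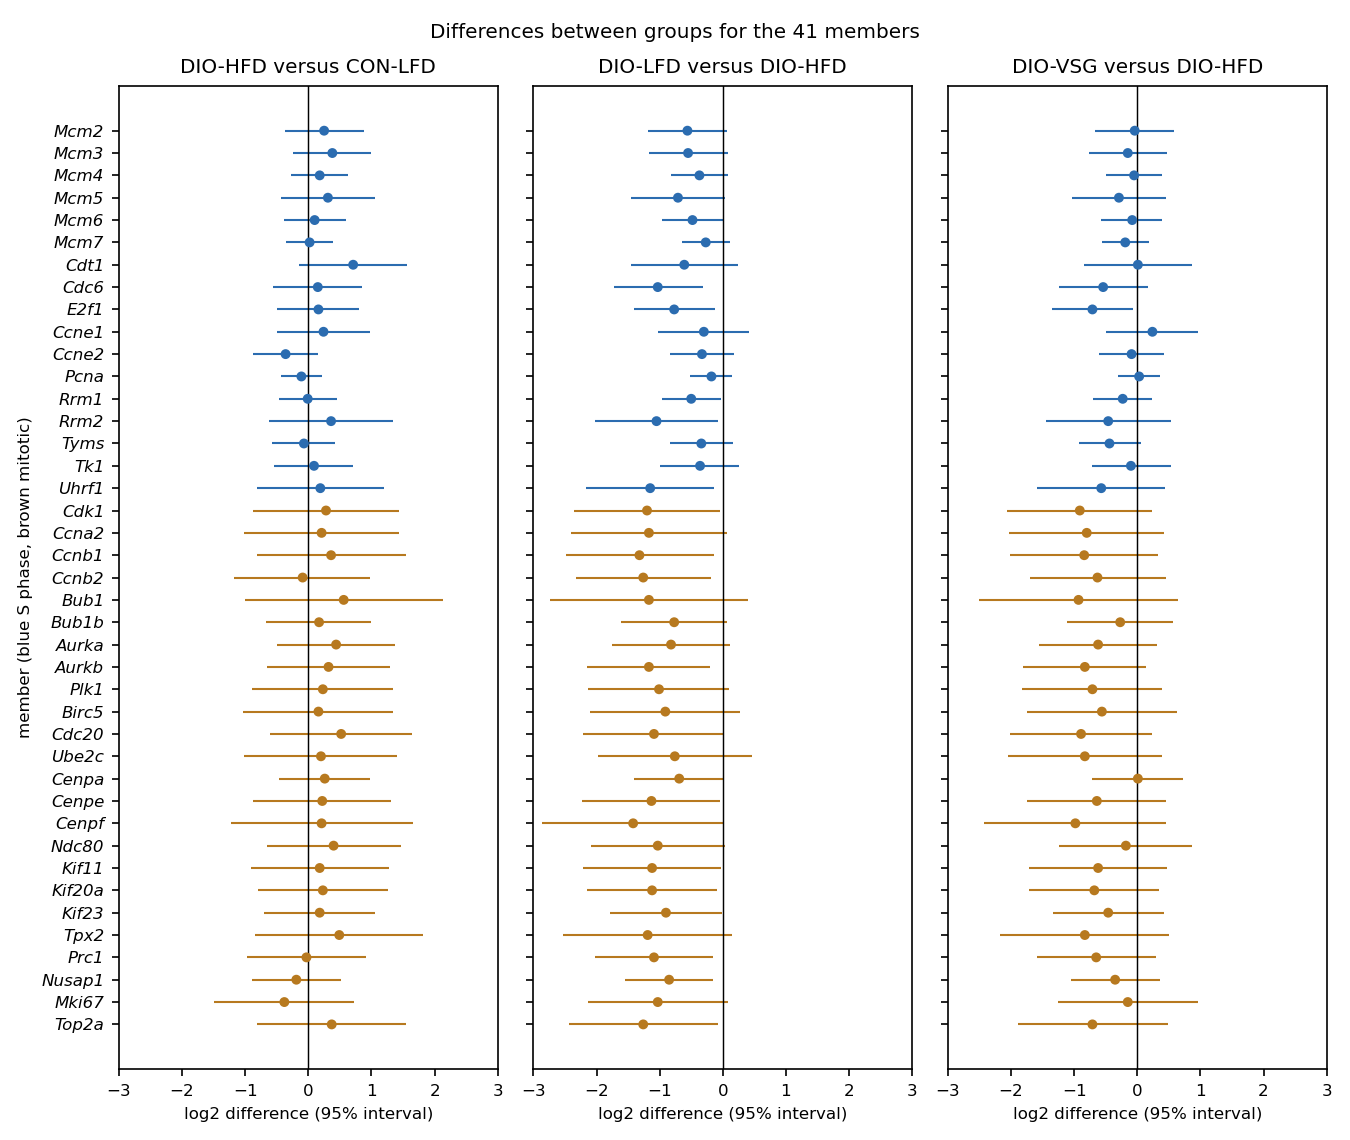
Log2 differences (points) with 95% intervals (lines, limma) of the 41 members in the comparisons that involve DIO-HFD, S-phase members in blue and mitotic members in brown. In DIO-LFD versus DIO-HFD all 41 points are below 0, with mitotic members between −1.42 and −0.69, whereas in DIO-HFD versus CON-LFD they lie between −0.38 and 0.71.

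Relative to CON-LFD, which had never been obese, DIO-LFD had a log2 difference below 0 for most members, and no member passed the test. CON-LFD 1 was the highest control mouse for many of them. Of 41 members, 40 were below 0, against 46.9% of all genes, with medians of −0.87 over mitotic and −0.38 over S-phase members, and 0.02 over all genes. By limma, 0 members passed the adjusted threshold, against 0.00471% of all genes. At a nominal P value below 0.05, 7 members were lower (Cdc6, Ccne2, Rrm1, Ccnb2, Prc1, Nusap1 and Mki67), against 3.03%, and 0 were higher, against 3.23%. No member's groups were apart, whereas 1.81% of all genes were lower and 1.73% higher without overlap.

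Nusap1 was at 1372, 403, 552 and 539 normalized counts in CON-LFD and had the smallest P value (log2 difference −1.03, −1.74 to −0.33, limma adjusted P = 0.587). CON-LFD 2 lay below DIO-LFD 2 at 420. Ccne2 was at 243, 307, 174 and 220 in DIO-LFD (−0.68, −1.19 to −0.17), and Mki67 had a difference of −1.41 (−2.52 to −0.30). The count of 7 was 1 without CON-LFD 1, 3 without DIO-LFD 3, 4 without DIO-LFD 1, 16 without CON-LFD 2 and 20 without DIO-LFD 2. The mitotic median was −0.47 without CON-LFD 1 and DIO-HFD 3, −1.42 without the 4 libraries poor in B cell markers and −1.31 without the 5 high in Fosl1. With library weights 37 members were lower at a nominal P value below 0.05, where 17% of all genes reached that level in either direction, and 0 members passed the adjusted threshold.

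In CON-LFD 1 to 4, Top2a was at 5319, 1487, 2557 and 1573 normalized counts. Cdk1 was at 1254, 384, 389 and 386. Ccnb1 was at 863, 244, 404 and 275. CON-LFD 1 was the highest for all 3. Ccnb2 was at 981, 204, 349 and 319. Aurkb was at 863, 228, 360 and 320. Prc1 was at 2114, 629, 594 and 673. These too were highest in CON-LFD 1. Cdc6 was at 428, 251, 234 and 185. Uhrf1 was at 2606, 655, 869 and 684. Pcna was at 3962, 2200, 2933 and 2662. The S-phase genes shared the highest control mouse. Rrm1 was at 3566, 1805, 2083 and 1835 and Rrm2 at 1210, 391, 675 and 353. Mcm2 was at 1918, 757, 1349 and 814. CON-LFD 1 and CON-LFD 3 were the highest for these 3 genes. Of the markers, epithelial genes were between −0.77 and 0.41, B cell genes between 1.98 and 2.97 and T cell genes between 0.30 and 1.84, and 0 of the 7, 8 and 8 had a nominal P value below 0.05. Their part was not tested.

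DIO-VSG was also compared with CON-LFD. Of 41 members, 32 were below 0, against 52.2% of all genes, with medians of −0.44 over mitotic, −0.08 over S-phase members and −0.02 over all genes. By limma, 0 members and 0 genes (0%) passed the adjusted threshold, and Tyms was the 1 member lower at a nominal P value below 0.05, against 7.55% of all genes, with 0 higher, against 10.2%. Tyms was at 872, 375, 360 and 367 in CON-LFD (log2 difference −0.51, limma adjusted P = 0.275), and DIO-VSG 1 at 361 met the CON-LFD range. Ccne2, at 260, 305, 269 and 258 in DIO-VSG, was the 1 member wholly below CON-LFD (−0.45, −0.96 to 0.06), against 4.43% of all genes. E2f1 was at 959, 474, 412 and 1001 in CON-LFD (−0.55, −1.20 to 0.09). The count was 3 without CON-LFD 2 or CON-LFD 3 and 0 without DIO-HFD 2, DIO-HFD 4, DIO-LFD 2, DIO-LFD 3, DIO-LFD 4, DIO-VSG 2, DIO-VSG 3 or DIO-VSG 4. With library weights 7 members passed the adjusted threshold, among them Tyms (−0.97), E2f1 (−0.86) and Ccne2 (−0.75), against 19.9% of all genes. The mitotic median was −0.03 without CON-LFD 1 and DIO-HFD 3, −1.05 without the 4 libraries poor in B cell markers and −0.69 without the 5 high in Fosl1.

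In DIO-VSG versus CON-LFD, all 8 B cell markers (3.27 to 4.18) and 6 of 8 T cell markers had a nominal P value below 0.05 in that direction, against 10.2% of all genes. Of 7 epithelial markers Krt14 was lower (−1.03), with no overlap, against 4.43% of all genes. By limma 0 of these markers passed the adjusted threshold, and their part in the members' differences was not tested.

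The direct comparison of the weight-loss arms, DIO-VSG with DIO-LFD, had most members above 0. Of 41 members, 2 (Tyms and Ube2c) were below 0, against 52.7% of all genes, with medians of 0.44 over mitotic, 0.39 over S-phase members and −0.02 over all genes. By limma, 0 members and 0 genes (0%) passed an adjusted P value of 0.05. A nominal P value below 0.05 was reached by 0 members in the higher direction, against 4.3%, or in the lower, against 5.41%. More genes passed, and more members reached the nominal level, with library weights or with only the libraries of these arms. Those counts are listed below with the other settings. Cenpa was at 1382, 465, 994 and 659 normalized counts in CON-LFD and 1374, 529, 1259 and 950 in DIO-HFD. In the arms compared here it was at 963, 1196, 999 and 781 in DIO-VSG and 486, 823, 592 and 537 in DIO-LFD (log2 difference 0.70, −0.01 to 1.42, limma adjusted P = 0.51).

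DIO-LFD 2 was the DIO-LFD mouse that reached the DIO-VSG range for Cenpa. Mcm2 was at 1332, 1531, 1315 and 1068 in DIO-VSG (0.52, −0.10 to 1.15), and Mcm6 was at 2645, 3073, 2819 and 1919 in DIO-VSG and 1878, 2546, 1822 and 1669 in DIO-LFD (0.40, −0.09 to 0.89), beside 3879, 2296, 2538 and 1858 in CON-LFD and 3497, 2003, 2874 and 2758 in DIO-HFD. Pcna, at 2913, 2554, 2742 and 2655 in DIO-VSG, lay wholly above DIO-LFD and was the 1 member to do so, against 12.9% of all genes. This nominal level was reached by 5 members without DIO-LFD 2, 2 without CON-LFD 1 or DIO-VSG 4, and 1 without CON-LFD 2 or DIO-HFD 2. The mitotic median was 0.66 without the 5 libraries high in Fosl1. CON-LFD 1, DIO-HFD 3 and the 4 libraries poor in B cell markers lie outside both arms. Leaving them out cannot change the median of 0.44. All 8 B cell and all 8 T cell markers lay wholly above DIO-LFD in DIO-VSG (12.9% of all genes did). B cell markers summed to 59262 to 68812 against 15372 to 34998 and T cell markers to 21187 to 32588 against 6887 to 14301, with 0 past the adjusted threshold by limma. All 6 endothelial markers were below 0, with Kdr (−0.56) and Tek (−0.65) lower at a nominal P value below 0.05, against 5.41% of all genes, and all 7 epithelial markers were between −0.65 and −0.30. The part of these cells in the members' differences was not tested.

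Further genes of replication and mitosis were mostly below 0 in DIO-LFD versus DIO-HFD. In DIO-LFD versus DIO-HFD, 45 of 46 further replication genes were below 0, with 12 lower at a nominal P value below 0.05 and a median of −0.42, and 59 of 60 further mitotic genes were below 0, with 23 lower and a median of −0.99. Over all genes the shares were 48.4% below 0 and 3.16% lower. By limma 0 of these genes passed the adjusted threshold in the comparisons with DIO-HFD. Pola1, the catalytic subunit of the polymerase that primes replication, was at 966, 762, 1004 and 822 normalized counts in DIO-HFD and at 583, 680, 577 and 557 in DIO-LFD, with no overlap (−0.56, −0.93 to −0.19). Pole, the leading-strand polymerase, was at 1122, 672, 1186 and 862 against 452, 629, 488 and 480, with no overlap (−0.88, −1.48 to −0.28). Among mitotic genes, the kinase gene Pbk (−1.51, −2.62 to −0.40) and the spindle gene Ckap2l (−1.32, −2.33 to −0.30) had the smallest P values.

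In DIO-VSG versus DIO-HFD, 36 of 46 replication genes were below 0 (median −0.21, 2 lower at a nominal P value below 0.05) and 58 of 60 mitotic genes (median −0.60, 1 lower), against 47.5% of all genes below 0 and 8.12% lower. E2f7, an E2F repressor, was at −0.91 (−1.65 to −0.17), Pola1 at −0.46 (−0.83 to −0.09), Pbk at −1.16 (−2.27 to −0.05) and the spindle gene Fam83d at −1.20 (−2.45 to 0.04). In DIO-HFD versus CON-LFD, 37 of 46 and 52 of 60 were above 0, with medians of 0.17 and 0.25, while 47.3% of all genes were below 0. Pola2, another subunit of the priming polymerase, was at 0.47 (0.07 to 0.87) and the replication protein A subunit Rpa3 at 0.25 (0.01 to 0.49), while Fam83d was at 0.86 (−0.38 to 2.11) and the mitotic transcription factor Mybl2 at 0.72 (−0.38 to 1.83).

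Inhibitors of the cycle and related brakes (18 genes) showed 11 below 0 in DIO-LFD versus DIO-HFD, with a median of −0.05 and a range of −0.28 to 0.79, and 9 in DIO-VSG versus DIO-HFD, with a median of −0.02. Cdkn1c, encoding the CDK inhibitor p57, was at 0.41 (−0.08 to 0.89) in the first, and Cdkn1b, encoding p27, at 0.31 (−0.02 to 0.65) in the second. Cdkn2c, encoding the CDK4 and CDK6 inhibitor p18, was at 5529, 3449, 2790 and 6073 normalized counts in CON-LFD and 1395, 2294, 3137 and 2590 in DIO-HFD (−0.91, −1.71 to −0.10), and at 0.61 (−0.19 to 1.42) in DIO-LFD versus DIO-HFD. Gadd45a, a DNA damage response gene, was at 0.70 (0.09 to 1.31) in DIO-HFD versus CON-LFD and −0.56 (−1.16 to 0.05) in DIO-VSG versus DIO-HFD. Cyclins and CDKs of G1 (12 genes) had medians within 0.10 of 0 in these comparisons, at 0.01, −0.10 and −0.07. Ccnd3 was at 6522, 6331, 6266 and 6094 in DIO-VSG, above all DIO-HFD mice at 6023, 5485, 5081 and 5534 (0.19, 0.00 to 0.38, limma adjusted P = 0.376), as were 2.37% of all genes. Cdk4, noted after its values were seen, was at 3514, 3510, 3580 and 3418 in DIO-VSG, below all DIO-HFD mice at 4082, 4047, 4050 and 3748 (−0.18), as were 4.22% of all genes, and Ccnd1 was at −0.46 (−1.05 to 0.12). Cdk6 (−0.37) and Ccnd3 (0.16) had the smallest P values of this list in DIO-LFD versus DIO-HFD, and E2f4 (0.19) and Cdk2 (0.11) in DIO-HFD versus CON-LFD.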

How the data were processed

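Total RNA of contralateral mammary adipose tissue was sequenced by the authors as stranded paired-end libraries (16 mice). The study's methods name STAR, salmon and GRCm38 with a Gencode annotation, whereas the submitters' processing notes list TopHat2 2.0.7, HTSeq 0.5.3p9 and mm10. The deposited values are on a log2 scale and, from their spacing, are variance-stabilized values that the authors made with DESeq2, after they removed genes with fewer than 10 reads in all. The design assumed normalized counts, so the transformation was inverted. Dividing by each library's step gave whole reads for 100% of values (tolerance 0.02) and size factors of 0.9036 to 1.2204. Animal numbers tied each column to its sample, leaving 0 columns unmatched.

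A pseudocount of 1 was added and values were taken to log2, where folds of low genes come out too small. Genes were kept if 4 or more libraries reached 10 normalized counts (21218 genes). The limma-trend model (R 4.3.3, limma 3.58.1) held all 16 libraries, with group as its term. Tests were two-sided and Benjamini-Hochberg adjusted over all genes within each of 6 comparisons. The test was checked on simulated data. Replicates are separate mice. Their chi-square per gene was at least 67.5 within groups, so no library appeared under 2 names in the same group. Libraries of different groups were not compared in this way. The replicate number was not found to pair mice. The members and lists were chosen with earlier results of these data known.

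Values in every library are given for Mki67, Top2a, Cdk1, Ccnb1, Pcna and Mcm2, for the 5 mitotic and 5 S-phase members of smallest P value in DIO-LFD versus DIO-HFD, and for the 3 members of smallest P value in each other comparison, and of each further list the 2 genes of smallest P value in each comparison with DIO-HFD are named. Tyms in DIO-LFD versus DIO-HFD and Pcna in DIO-VSG versus DIO-LFD were singled out after their values were seen. Transcript lengths and overlaps came from GENCODE M21 (GRCm38), and promoters from RefSeq, the first window of a gene being used. Alternatives covered the pseudocount, the filter, scaling, weights, the replicate block, limma-voom on the recovered reads and omission of libraries. The result of 1 marker list is not reported here.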

Additional observations from a re-analysis of the deposited data

Results flagged for a closer look

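In 11 of 164 groups of 4 mice (41 members in 4 groups), the highest mouse was separated from the other 3 by a gap, relative to the group's range, above the 95% critical value of Dixon's test. Chance flags about 1 in 20 groups, members are not independent, and all 11 involved CON-LFD 1 or DIO-LFD 2.

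CON-LFD 1 was far above its group for 5 members. Its normalized count was 1254 for Cdk1 (384 to 389 in the other 3 mice), 2133 for Cenpf (541 to 587), 2114 for Prc1 (594 to 673), 872 for Tyms (360 to 375) and 562 for Ccne2 (307 to 339).

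DIO-LFD 2 was far above its group for 6 members. It was at 1264 for Mcm2 (778 to 829), 1139 for Mcm5 (649 to 674), 267 for Cdc6 (111 to 119), 1147 for Uhrf1 (354 to 430), 497 for Kif23 (265 to 284) and 420 for Nusap1 (277 to 286).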

How the results depend on the processing

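Each member had at least 67 reads in each library. With 1 mouse left out, genes past the adjusted threshold numbered 0 to 128 for DIO-HFD versus CON-LFD, 0 to 6 for DIO-LFD versus CON-LFD, 0 to 1 for DIO-LFD or DIO-VSG versus DIO-HFD and 0 to 873 for DIO-VSG versus CON-LFD. Members at an unadjusted P value below 0.05 numbered 0 to 2 (DIO-HFD versus CON-LFD), 1 to 20 (DIO-LFD versus CON-LFD), 1 to 32 (DIO-LFD versus DIO-HFD), 0 to 3 (DIO-VSG versus CON-LFD or DIO-HFD) and 0 to 5 (DIO-VSG versus DIO-LFD). Members past the adjusted threshold were 0 in each of these fits and with limma-voom.

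The cause of the differences below was not tested. With library weights, DIO-HFD versus CON-LFD had 4196 genes and 2 members past the adjusted threshold. An unadjusted P value below 0.05 was reached by 15 members, beside 7949 of the 21218 genes tested, in either direction. The medians were −0.88 (mitotic) and −0.29 (S phase), both turned in direction, and the log2 difference of Mcm3 was −0.05. Past the adjusted threshold, DIO-LFD versus DIO-HFD had 1811 genes and 1 member, and DIO-VSG versus CON-LFD 4226 genes and 7 members. DIO-VSG versus DIO-HFD had 3739 genes there, DIO-VSG versus DIO-LFD 184 and DIO-LFD versus CON-LFD 53. Members at an unadjusted P value below 0.05 were then 3 (DIO-VSG versus DIO-HFD), 4 (DIO-VSG versus DIO-LFD), 37 (DIO-LFD versus CON-LFD) and 25 (DIO-VSG versus CON-LFD). In the same order, 7184, 5500, 3613 and 7937 of the 21218 genes tested reached that level, in either direction.

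Under the other settings, genes past the adjusted threshold in DIO-HFD versus CON-LFD were 3 with quantile normalization, 19 with scaling by library total, 0 with limma-voom and 0 in the 8 libraries alone. In DIO-LFD versus CON-LFD they were 2 with a pseudocount of 5, 2 on the deposited values, 2 with scaling by library total, 0 with limma-voom and 0 in the 8 libraries alone. In DIO-VSG versus CON-LFD they were 1 on the deposited values and 2 in the 8 libraries, in DIO-VSG versus DIO-HFD 1 with scaling by total and in DIO-VSG versus DIO-LFD 1533 in the 8 libraries. Members at an unadjusted P value below 0.05 in DIO-VSG versus DIO-LFD were 1 with quantile normalization and 8 in the 8 libraries, in DIO-VSG versus DIO-HFD 2 in the 8 libraries, and in DIO-VSG versus CON-LFD 0 with scaling by total, with limma-voom or in the 8 libraries.

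Of 24 pairs of mice with the same number, 9 had deviations that correlated above 0.1 (range −0.61 to 0.53), so the number was not used to pair them. With the replicate block, 1 gene passed in DIO-HFD versus CON-LFD and 0 in DIO-LFD versus CON-LFD, and 15 members were at an unadjusted P value below 0.05 in DIO-LFD versus DIO-HFD.

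The next 3 settings were chosen after seeing the data, and their member counts come without the share of all genes. Without the 2 libraries of highest mitotic level, 0 genes passed in DIO-HFD and in DIO-LFD versus CON-LFD, and members at an unadjusted P value below 0.05 were 9 (DIO-LFD versus DIO-HFD), 1 (DIO-VSG versus DIO-LFD) and 2 (DIO-LFD versus CON-LFD). Without the 4 libraries poor in B cell markers, genes passing were 1 in DIO-HFD versus CON-LFD and 4 in DIO-VSG versus DIO-LFD. They were 3 in DIO-LFD versus CON-LFD and 1 in DIO-VSG versus CON-LFD. Members were 1, 7, 32 and 10 in the same order and 0 in DIO-VSG versus DIO-HFD. The controls left were then CON-LFD 1 and 3, with the highest mitotic sums of their group (43570 and 19141, against 10898 and 13352). Without the 5 libraries high in Fosl1, 0 genes passed in DIO-HFD and in DIO-LFD versus CON-LFD, and members were 0 (DIO-VSG versus DIO-HFD), 23 (DIO-LFD versus CON-LFD) and 2 (DIO-VSG versus CON-LFD).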

Other observations

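Genes in these paragraphs were chosen after their values were seen, and the values are given without an explanation. The relation among mitotic members was not the same in all libraries. In DIO-HFD 3 the count of Cenpf (2785) exceeded that of Mki67 (2675), whereas Mki67 was above Cenpf in each of the other 15 libraries, by 1.38 (DIO-LFD 1) to 3.30 (DIO-HFD 1) on the log2 scale. Cdk1 was closest to the helicase subunit gene Mcm6 in DIO-HFD 3 (log2 ratio −0.85) and farthest in DIO-LFD 3 (−3.72).

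Tead4, a transcription factor of the Hippo pathway, and Erc2 were high in the same 5 libraries as Fosl1. Tead4 was at 464 (DIO-VSG 2) to 1420 (DIO-HFD 3) normalized counts there and at 190 to 385 elsewhere. Erc2 was at 49.1 (DIO-LFD 1) to 599 (DIO-HFD 3) there and at 14.3 to 26.5 elsewhere. CON-LFD 1, with the highest S-phase sum of the 16 libraries (32247), was among the low libraries for each of these genes, with Fosl1 at 117 and Hmga2 at 19.9.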
